A study of Mus musculus with 6 samples.

Results

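The genes described here encode the actin, myosin, tubulin and keratin cytoskeleton and the proteins that build, cap, crosslink and anchor its filaments. They were chosen by symbol. A total of 92 names in the deposited table belonged to these families by name, and 3 were set aside, namely the kinases Map4k2 and Map4k3 and the autophagy protein Map1lc3b. That left 89 of the 7340 listed genes. The mouse annotation holds 230 coding genes with such names, and the other 141, among them the heavy chain Myh9, the actin-related protein Actr3 and the linkers Ezr, Msn and Rdx, lie outside those listed and were not analysed here. RNA was sequenced from kidneys of wild-type mice in 2 groups of 3 samples. The first group, called MK-8617 here, combined ischaemia-reperfusion injury (IRI), where blood flow is stopped and then restored, with MK-8617, a compound that inhibits HIF prolyl hydroxylases and so stabilises hypoxia-inducible factor (HIF). The second group, called IRI, had the injury alone. The labels give no strain, age, dose or time, and where the titles of MK-8617 replicates 2 and 3 read MK8617, their treatment entries read MK8618 and MK8619. No uninjured kidney was analysed here, so each difference below is between injured kidneys.

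Actin polymerises into filaments that carry the brush border of tubule cells, the foot processes of podocytes and, with myosin II, the contraction of vascular smooth muscle and of myofibroblasts. Monomer-binding proteins such as thymosins, profilins and cofilin set the pool of free actin, the Arp2/3 complex branches filaments, and tropomyosins line them. Microtubules are built from alpha and beta tubulin and carry dynein, and keratins 8 and 18 form the intermediate filaments of simple epithelia such as the kidney tubule. Tubule cells lose brush border and polarity after ischaemia, and vimentin and alpha smooth muscle actin are widely used as marks of dedifferentiated and of contractile cells in injured kidney.

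Libraries held 16835541 to 17577794 counted reads with MK-8617 and 18620621 to 19508497 reads in IRI. Proximal tubule markers were present in every library, as a check of the labelled tissue, with a summed level of 1870 to 1960 FPKM in the MK-8617 libraries and 266 to 900 FPKM in the IRI libraries. Values below are normalised reads, which are counted reads divided by one factor per library, or FPKM, which also divides by gene length and is the scale on which different genes are set side by side. A fold change is MK-8617 over IRI on log2(normalised reads + 1), and a gene is said to have risen or fallen where the limma p, adjusted over 18811 genes, was below 0.05. Since no label states that each replicate is its own animal, p-values reflect the spread between these 6 samples only, and that spread may be technical. In whole tissue, fewer cells of a type and less RNA per cell cannot be told apart.

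The cytoskeleton genes were mostly lower with MK-8617. Of the 89 genes, 85 passed the filter on low counts and were tested, and Acta1, Krt76, Myh6 and Stmn4 did not pass it. A change passed the test for 66 of them, or 77.6%, beside 74.3% of all tested genes. Of the 85, 61 fell, which is 71.8% beside 38.7% of all 6961 tested genes, and 5 rose, which is 5.88% beside 35.7% of all tested genes. The 5 that rose were Tuba1c, Tubb2a, Tubgcp3, Map1s and Tbce, and all of them belong to the microtubule system. The median log2 fold change of the 85 genes was -0.62, beside -0.31 for all tested genes. Groups did not overlap for 79 of the 85 genes, beside 92.5% of all tested genes, and the table itself lists only genes with an authors' p below 0.05, so this share is no result about the cytoskeleton. Falls past a log2 fold change of -1 were seen for 18 of the 85 genes, or 21.2%, close to the 18.3% of all tested genes. In the authors' deposited table, 67 of the genes were lower and 6 higher at an adjusted p below 0.05. The 66 called there and here had the same direction, but both sets of calls come from the same counts, so this is no independent check. Summed over all 89 genes, the level was 4760 ± 97.9 FPKM in the MK-8617 libraries and 7400 ± 774 FPKM in the IRI libraries (SD, n = 3 each). The number that rose was 3 without MK-8617 replicate 1 or 2, and the number that fell was 43 to 54 in the fits that each left out one library.

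**Figure D1:**
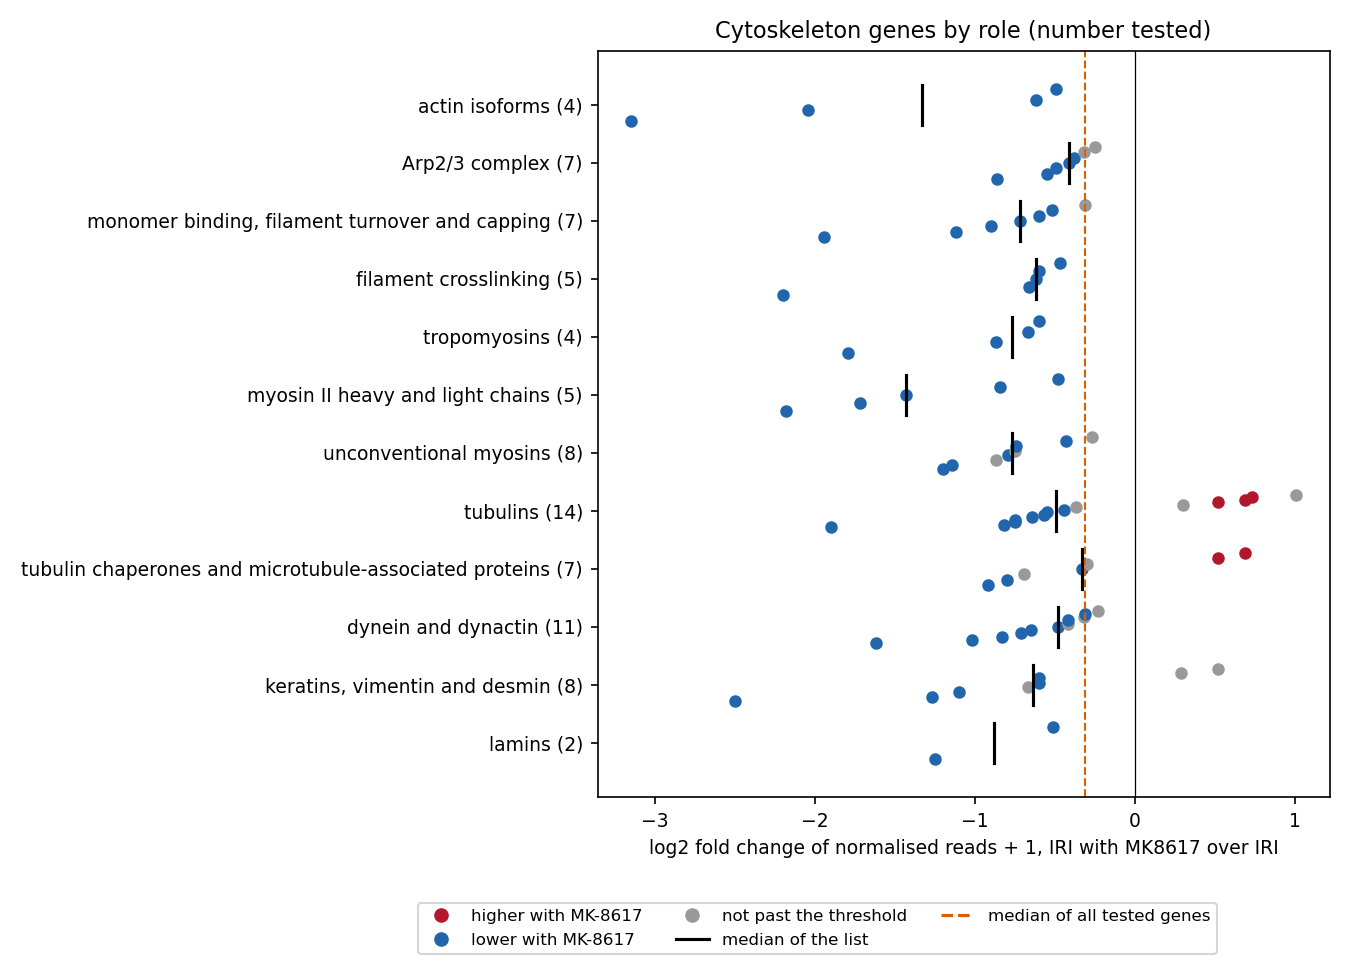
Each point is one tested cytoskeleton gene of the groups drawn, which leave out the spectrins, placed by its log2 fold change (MK-8617 over IRI, on log2(normalised reads + 1)) in the row of its role, with the number of tested genes in brackets; black bars are list medians and the dashed line is the median of all tested genes at -0.31. All points of the actin, tropomyosin and myosin rows lie left of 0, and the 5 genes that rose stand in the tubulin row and the row of tubulin chaperones and microtubule-associated proteins.

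The fall was not spread evenly over the filament systems. The summed level of every actin and myosin list drawn in the plot of summed levels was lower with MK-8617 in each library than in any IRI library. The spectrin list, which was not drawn, summed to 72.5 ± 6.29 FPKM with MK-8617 and 59.3 ± 11.7 FPKM in IRI and overlapped between groups. The summed tubulin level was 986 ± 56.7 FPKM in the MK-8617 libraries and 1050 ± 103 FPKM in the IRI libraries and overlapped too. Intermediate filaments and the dynein and dynactin list were lower with no overlap. Reads of the 89 genes made up 1.30% to 1.41% of a library with MK-8617 and 1.85% to 2.24% in IRI. Strand use in counting is not given in the sources used here, so reads of Tuba4a and Stk16 (1379 shared exon bases), Arpc1b and Pdap1 (931), Cfl1 and Snx32 (468), Tbce and B3galnt2 (325), and Actn4 and Capn12 (316), which lie on opposite strands, cannot be told apart. IRI replicate 3 held the highest value for 46 of the 85 tested genes, beside 17% of all tested genes, and the median log2 fold change of the cytoskeleton genes without it was -0.53.

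**Figure D2:**
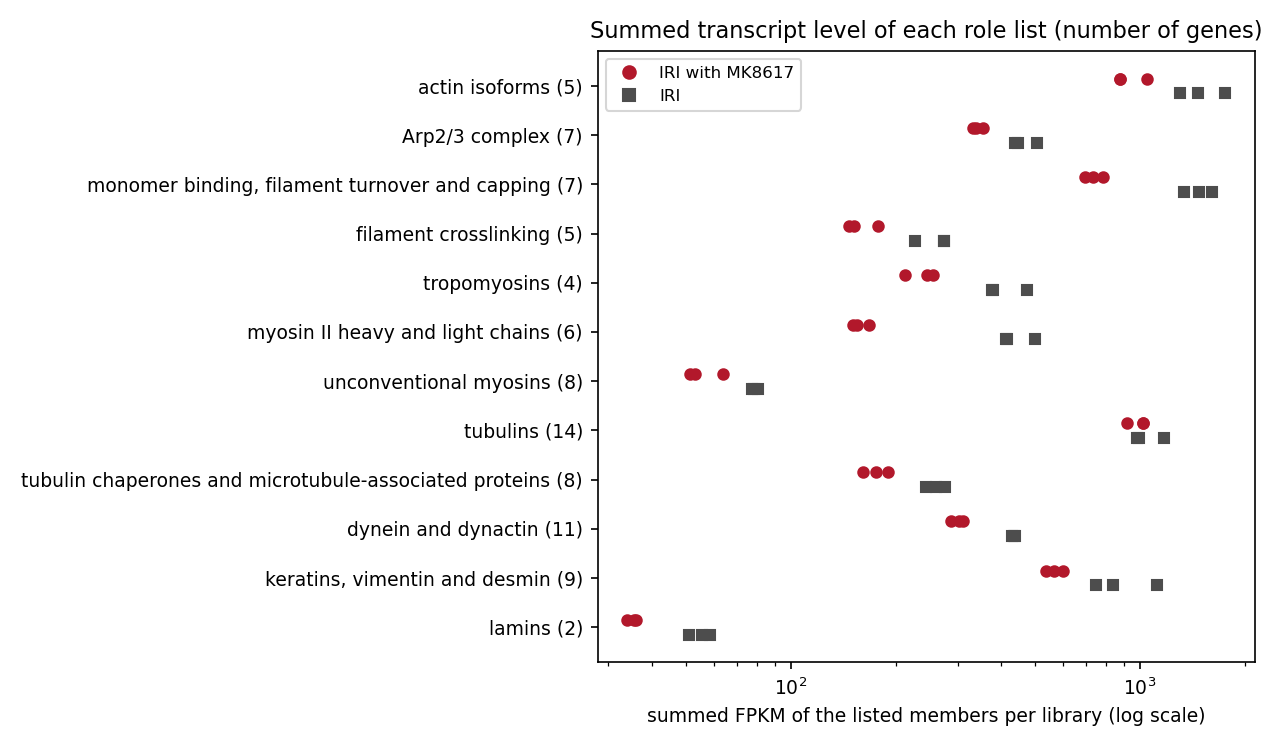
Summed FPKM of each role list but the spectrins, per library on a log axis, with circles for the 3 MK-8617 libraries and squares for the 3 IRI libraries; the number in brackets counts the listed genes. Circles and squares separate in the actin, myosin, dynein, intermediate filament and lamin rows and mix in the tubulin row.

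All 4 tested actin isoforms fell, beside 38.7% of all tested genes, with a list median of -1.33. The cytoplasmic actins carried most of the actin level, and the smooth muscle isoforms fell furthest. Acta2, alpha smooth muscle actin (chr19:34241090-34255590, GRCm38), had 940.5, 2072 and 1364 normalised reads in the MK-8617 libraries, against 5533, 4237 and 7884 in the IRI libraries (log2 fold change -2.04 ± 0.29 SE, limma adjusted p = 0.00148). The highest MK-8617 library lay below the lowest IRI library by a wide margin, and IRI replicate 3 was the highest of the 6. Actg2, the gamma actin of visceral smooth muscle, was near the limit of 3 reads with MK-8617, at 0, 3.2 and 3.2 with MK-8617 and 17.0, 15.5 and 40.3 in IRI (limma adjusted p = 0.00995), so no fold is given. Actb, cytoplasmic beta actin (chr5:142903115-142906754), had 19684, 21204 and 23429.6 normalised reads in the MK-8617 libraries, against 31082, 28918 and 39399 in the IRI libraries (log2 fold change -0.62 ± 0.14 SE, limma adjusted p = 0.0109). Actg1, cytoplasmic gamma actin, had 21014, 17877 and 24621 normalised reads in the MK-8617 libraries, against 30228, 26391 and 32311 in the IRI libraries (log2 fold change -0.49 ± 0.14 SE, limma adjusted p = 0.031). Groups of both cytoplasmic actins were separate, though the gap was narrow for Actg1, whose call was lost without MK-8617 replicate 1 or 2 or IRI replicate 1 or 3 (-0.49 to -0.38) and with the trend of fold change on gene length removed. The Actg1 call was also lost in edgeR's quasi-likelihood test on whole reads (adjusted p = 0.0635). The muscle isoform Acta1, which was not tested, had 0, 0 and 1.1 with MK-8617 and 7.6, 5.5 and 1.0 in IRI.

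The actin isoforms differed in composition as well as in amount. Acta2 made up 4.93 ± 2.14% of the summed actin FPKM with MK-8617 and 12.1 ± 1.93% in IRI (SD, n = 3 each), without overlap. Actb made up 47.7 ± 2.03% with MK-8617 and 46.0 ± 1.38% in IRI, and the ratio of Actb to Actg1 FPKM was 1.02 ± 0.139 with MK-8617 and 1.11 ± 0.0962 in IRI, both overlapping between groups. An exact permutation test of 3 against 3 libraries cannot give a two-sided p below 0.1, so shares and ratios that do not overlap are given as descriptions. Of the Actg1 transcript, 51.1% of its 100-base words also occur in other annotated genes, so its level is uncertain.

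**Figure D3:**
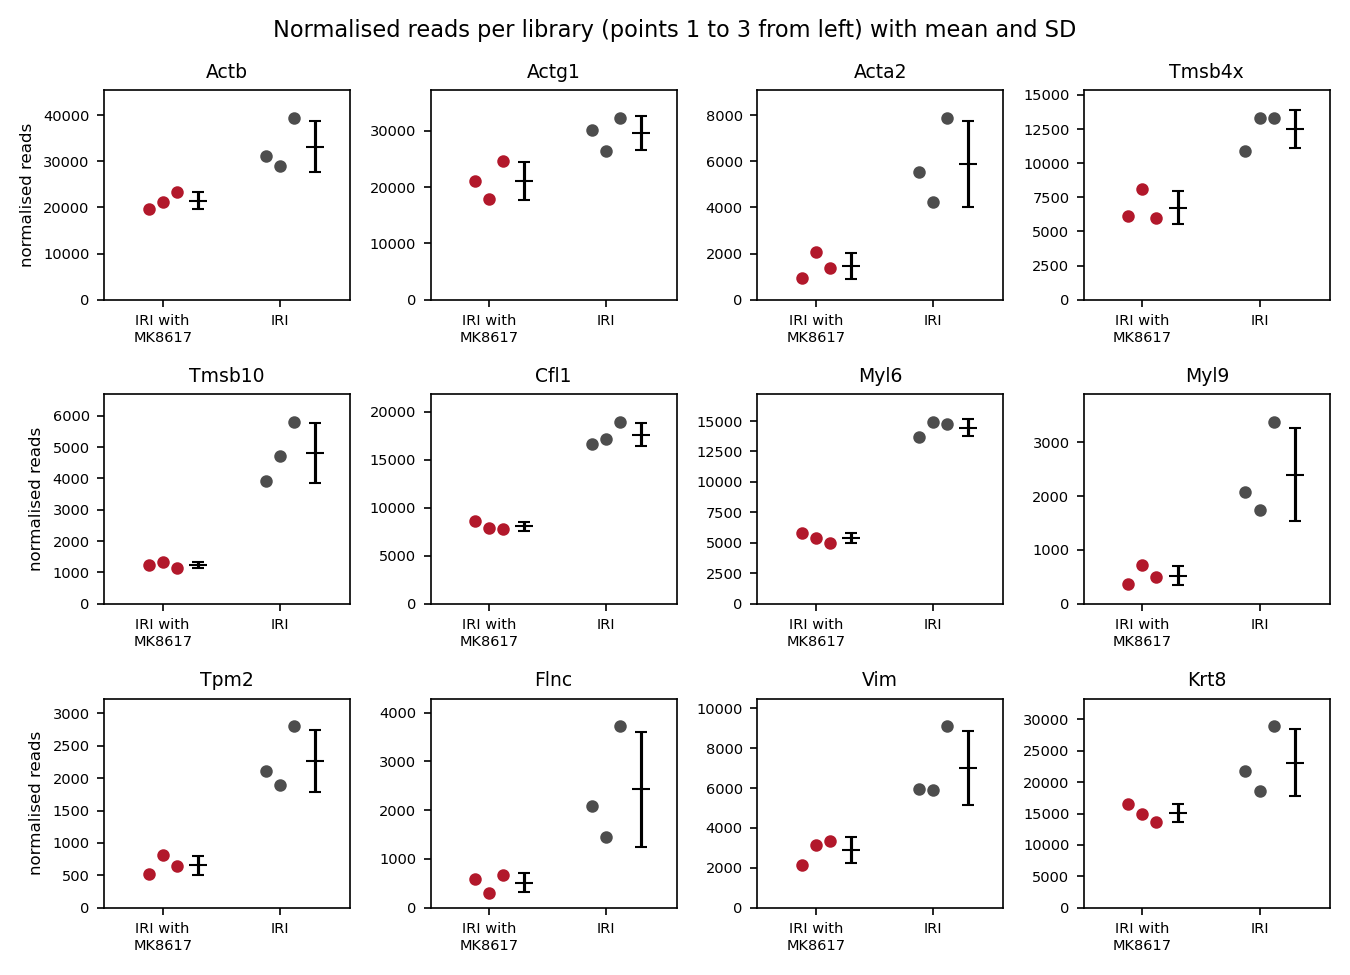
Normalised reads of 12 genes, 1 panel each on an axis from 0, with one point per library and the mean with SD beside each group; the 3 MK-8617 libraries stand left of the 3 IRI libraries. In each panel the MK-8617 points lie below the IRI points, with a narrow gap for Actg1 and Krt8 and a wide one for Tmsb10, Cfl1 and Myl6.

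Monomer-binding and turnover genes fell in 6 of 7 cases (85.7%), beside 38.7% of all tested genes. The list median was -0.72, and the summed level was 738 ± 45.5 FPKM in the MK-8617 libraries and 1480 ± 138 FPKM in the IRI libraries. Thymosin beta-10, Tmsb10, which sequesters actin monomers (chr6:72957347-72958748), had 1227, 1337 and 1147 normalised reads in the MK-8617 libraries, against 3907, 4724 and 5808 in the IRI libraries (log2 fold change -1.94 ± 0.15 SE, limma adjusted p = 7.98e-05). Its relative Tmsb4x, thymosin beta-4, had 6160.5, 8117 and 5971 normalised reads in the MK-8617 libraries, against 10868, 13320.2 and 13305 in the IRI libraries (log2 fold change -0.90 ± 0.15 SE, limma adjusted p = 0.00262). The 2 thymosins fell to different degrees, and the ratio of Tmsb10 to Tmsb4x FPKM was 0.199 ± 0.0196 with MK-8617 and 0.412 ± 0.0494 in IRI, without overlap. Cfl1, cofilin, which severs filaments (chr19:5490455-5495201), had 8601, 7849 and 7791 normalised reads in the MK-8617 libraries, against 16679.6, 17155 and 18960.1 in the IRI libraries (log2 fold change -1.12 ± 0.11 SE, limma adjusted p = 0.000223). Pfn2, the less abundant profilin, had 786, 875 and 849.6 with MK-8617 and 1305, 1319.8 and 1518 in IRI (log2 fold change -0.72 ± 0.10 SE, limma adjusted p = 0.00145). Profilin 1, Pfn1, which delivers monomers to growing filament ends, had 6909, 6113 and 6038 with MK-8617 and 9024, 9102 and 10732 in IRI (log2 fold change -0.60 ± 0.11 SE, limma adjusted p = 0.00528). The capping protein subunit Capzb fell (log2 fold change -0.52, limma adjusted p = 0.00387), and its partner Capza1, at -0.31, did not pass the threshold (adjusted p = 0.0746). In Tmsb10, 21.5% of the 100-base words recur in other genes.

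Of the 7 Arp2/3 complex subunits tested, 5 fell (71.4%), beside 38.7% of all tested genes. All 7 had separate groups, as had 92.5% of all tested genes. The differences were small, with a median of -0.41 beside -0.31 for all tested genes. The summed level was 342 ± 12 FPKM in the MK-8617 libraries and 464 ± 37 FPKM in the IRI libraries. Arpc1b, a subunit abundant in blood cells, fell most and had 2704, 2823 and 3186 normalised reads in the MK-8617 libraries, against 4778, 5032 and 6089 in the IRI libraries (log2 fold change -0.86 ± 0.12 SE, limma adjusted p = 0.00144). Arpc5l, an alternative form of the Arpc5 subunit, had 1020.4, 963 and 922 with MK-8617 and 1419.7, 1520.2 and 1319 in IRI (log2 fold change -0.55 ± 0.10 SE, limma adjusted p = 0.00382), and Arpc4 had 957, 972 and 1082 with MK-8617 and 1514, 1389 and 1330.5 in IRI (log2 fold change -0.49 ± 0.10 SE, limma adjusted p = 0.007). Arpc1b lay further below its IRI level than both, and its share of the complex was 9.21 ± 0.572% of FPKM with MK-8617 and 12.5 ± 0.582% in IRI. Arpc3 had 2328, 1966 and 1988 with MK-8617 and 2589.5, 2729.8 and 2825 in IRI (log2 fold change -0.38 ± 0.10 SE, limma adjusted p = 0.0249). Arpc5 had 3333, 3655 and 3456 with MK-8617 and 4178, 4390.3 and 5376 in IRI (log2 fold change -0.41 ± 0.12 SE, limma adjusted p = 0.0313). Arpc2, the most abundant subunit, had 4018, 3757 and 4329 with MK-8617 and 4789, 4746 and 5548 in IRI and did not pass the threshold (log2 fold change -0.32 ± 0.11 SE, limma adjusted p = 0.0593), nor did Actr2 at -0.25 (adjusted p = 0.117). The count of fallen subunits was 3 without MK-8617 replicate 2 or 3. In edgeR's quasi-likelihood test on whole reads, neither Arpc3 (adjusted p = 0.0561) nor Arpc5 (adjusted p = 0.0615) passed the threshold. Both calls were lost in DESeq2 and limma-voom too. The Arpc3 call was lost without MK-8617 replicate 2 or 3 or IRI replicate 1 or 2 (-0.41 to -0.33) and the Arpc5 call without MK-8617 replicate 1, 2 or 3 or IRI replicate 3 (-0.44 to -0.30) and with the length trend removed, where Actr2 passed the threshold (-0.35).

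The 5 crosslinking proteins all fell, beside 38.7% of all tested genes, with a list median of -0.62. Flnc, the muscle filamin, had 579.9, 299 and 675 normalised reads in the MK-8617 libraries, against 2091, 1455 and 3731 in the IRI libraries (log2 fold change -2.20 ± 0.37 SE, limma adjusted p = 0.00282). Flna, the filamin of most cells, had 6858, 7836 and 9665 with MK-8617 and 11714, 9639 and 16157 in IRI (log2 fold change -0.60 ± 0.20 SE, limma adjusted p = 0.0491). The groups of Flnc were separate, and those of Flna overlapped. Vil1, villin, which bundles the actin core of brush border microvilli, had 2906, 2624 and 2474 with MK-8617 and 4942, 4449 and 3392 in IRI (log2 fold change -0.66 ± 0.15 SE, limma adjusted p = 0.0101). Its lowest IRI library was replicate 3, the library highest for most other members. Actn4, the alpha-actinin of podocytes and other non-muscle cells, had 6166, 5621 and 7465 with MK-8617 and 11191, 8287 and 10154 in IRI (log2 fold change -0.62 ± 0.15 SE, limma adjusted p = 0.0141). Pls1, a plastin of microvilli, had 474, 525 and 599 with MK-8617 and 676, 865 and 679.6 in IRI (log2 fold change -0.47 ± 0.14 SE, limma adjusted p = 0.0334). The count of falls in the list was 2 to 3 without MK-8617 replicate 1, 2 or 3 or IRI replicate 1. Calls were lost for Flna without MK-8617 replicate 1, 2 or 3 or IRI replicate 1 or 3 (-0.74 to -0.40), for Actn4 without MK-8617 replicate 1 or 2 or IRI replicate 1 (-0.60 to -0.53), for Pls1 without MK-8617 replicate 1 or 2 or IRI replicate 2 (-0.46 to -0.35) and for Vil1 without MK-8617 replicate 3 (-0.61). Without IRI replicate 3 the Flna log2 fold change was -0.40. In edgeR's quasi-likelihood test on whole reads, Flna (adjusted p = 0.0749) and Pls1 (adjusted p = 0.0545) did not pass the threshold.

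Myosin II chains had the lowest median of the cytoskeleton groups. All 5 tested myosin II chains fell, beside 38.7% of all tested genes. The list median was -1.43, and the summed level was 158 ± 8.06 FPKM in the MK-8617 libraries and 442 ± 50.3 FPKM in the IRI libraries. Myl6, the essential light chain of non-muscle and smooth muscle myosin (chr10:128490860-128494145), had 5778, 5393 and 4979 normalised reads in the MK-8617 libraries, against 13657, 14937 and 14753 in the IRI libraries (log2 fold change -1.43 ± 0.10 SE, limma adjusted p = 7.3e-05). Myl9, a regulatory light chain of smooth muscle, had 369, 711 and 493 normalised reads in the MK-8617 libraries, against 2075, 1738 and 3379 in the IRI libraries (log2 fold change -2.18 ± 0.28 SE, limma adjusted p = 0.000842). Myh11, the smooth muscle heavy chain, had 206, 172 and 236 with MK-8617 and 761, 348 and 1134 in IRI (log2 fold change -1.72 ± 0.36 SE, limma adjusted p = 0.00814). Replicates were tight for Myl6 and wide for Myl9 and Myh11, where IRI replicate 3 was highest. Myl12a, a regulatory light chain of non-muscle cells, had 1902, 2067 and 2068 with MK-8617 and 3602, 3319 and 3872 in IRI (log2 fold change -0.84 ± 0.10 SE, limma adjusted p = 0.000659), and 24.5% of its words also occur in Myl12b. Myh10, the non-muscle heavy chain IIB, fell least of the 5 (log2 fold change -0.48, limma adjusted p = 0.01).

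Tropomyosins, which line actin filaments and gate myosin binding, fell in 4 of 4 genes, beside 38.7% of all tested genes. The list median was -0.77. Tpm2, beta tropomyosin of muscle, had 522, 812 and 639 normalised reads in the MK-8617 libraries, against 2109.7, 1890.0 and 2807 in the IRI libraries (log2 fold change -1.79 ± 0.19 SE, limma adjusted p = 0.000372). Tpm1 had 2593, 3195 and 3125 with MK-8617 and 4886, 5095 and 6409 in IRI (log2 fold change -0.87 ± 0.14 SE, limma adjusted p = 0.00208). Tpm4, the most abundant of the 4 by FPKM, had 5525, 6683 and 6656 with MK-8617 and 9383, 9319 and 11351 in IRI (log2 fold change -0.67 ± 0.13 SE, limma adjusted p = 0.00484). Tpm3 had 4481, 3789.9 and 5201 with MK-8617 and 5666, 6643 and 8103 in IRI (log2 fold change -0.60 ± 0.16 SE, limma adjusted p = 0.0231), a call that was lost without MK-8617 replicate 1 or 2 (-0.60 to -0.48). Tpm2 fell further than the others, and its share of tropomyosin FPKM was 5.26 ± 0.903% with MK-8617 and 10.6 ± 0.932% in IRI (SD, n = 3 each).

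Markers of smooth muscle, fibroblasts and pericytes were mostly lower with MK-8617 too. Of 6 smooth muscle markers that are no members, 4 lay in the table and 2 of them fell, Tagln (-1.70) and Cnn1 (-2.19), with a summed level of 1.88 to 3.9 FPKM in the MK-8617 libraries and 5.14 to 9.21 FPKM in the IRI libraries. Of 10 fibroblast and pericyte markers 7 lay in the table and 6 fell, among them Col1a1 (-2.17) and Postn (-2.36), while Dcn rose (0.76; 0.40 and not past the threshold with length and GC trends removed), with a summed level of 34.2 to 41.2 FPKM in the MK-8617 libraries and 84.2 to 184 FPKM in the IRI libraries. Among the IRI libraries the fibroblast and pericyte sum was highest in replicate 2 (184 FPKM). Acta2, Myl9, Myh11, Tpm2 and Flnc were lowest there. The smooth muscle marker sum was lowest in replicate 2 too, with 9.21, 5.14 and 8.75 FPKM in IRI replicates 1, 2 and 3. Of its markers, Synpo2 alone was highest in replicate 2. The share that fell was 50% of the smooth muscle and 85.7% of the fibroblast and pericyte markers tested, beside 38.7% of all tested genes. No marker of either list was at 0 in any library. The part of these cells in the fall of Acta2, Myl9, Myh11, Tpm2 and Flnc was not tested.

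The promoters of the cytoskeleton genes were searched for the CArG box, the element bound by serum response factor. Some of its cofactors, of the myocardin family, sense free actin monomers. Promoters of RefSeq (GRCm38.p6), 250 bases before to 50 after the start, were found for 72 of the 89 genes. The pattern searched was CC, then 6 letters that are each A or T, then GG. It is its own reverse complement and so covers both strands. A box of this exact form was present in 6 of the 72 genes, or 8.3%. The share was 1.8% of all 27025 genes with a promoter and 1.6% of such genes in the table. The 6 are Acta1, Actg1, Arpc4, Myl6, Myl9 and Vil1, and in Arpc4 the box starts at the first base of the window. Of these, 5 fell and Acta1 was not tested, where 48 of the 72 genes with a promoter fell. The box was present in 10.4% of those 48, close to the 8.3% of the 72. A part of the box in the falls was not tested. The sequences below show the 250 bases before the start of 4 of the 5 genes that fell and hold a box. Arpc4, whose box lies at the edge of the window, is not shown. Each sequence runs 5′ to 3′ on the gene's own strand, with the box in capitals. Actg1 lies at chr11:120348496-120348745 on the minus strand, Myl6 at chr10:128493010-128493259 on the minus strand, Myl9 at chr2:156775214-156775463 on the plus strand and Vil1 at chr1:74409134-74409383 on the plus strand.
Actg1: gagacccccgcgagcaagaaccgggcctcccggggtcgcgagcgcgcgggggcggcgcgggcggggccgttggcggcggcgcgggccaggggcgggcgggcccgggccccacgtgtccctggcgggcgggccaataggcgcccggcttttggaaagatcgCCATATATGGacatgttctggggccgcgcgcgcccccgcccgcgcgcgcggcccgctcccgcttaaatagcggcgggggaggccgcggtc
Myl6: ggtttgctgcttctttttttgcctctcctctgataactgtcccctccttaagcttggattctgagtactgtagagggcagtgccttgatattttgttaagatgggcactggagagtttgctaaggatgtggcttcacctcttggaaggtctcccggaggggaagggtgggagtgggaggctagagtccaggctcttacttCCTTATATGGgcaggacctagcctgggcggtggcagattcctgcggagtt
Myl9: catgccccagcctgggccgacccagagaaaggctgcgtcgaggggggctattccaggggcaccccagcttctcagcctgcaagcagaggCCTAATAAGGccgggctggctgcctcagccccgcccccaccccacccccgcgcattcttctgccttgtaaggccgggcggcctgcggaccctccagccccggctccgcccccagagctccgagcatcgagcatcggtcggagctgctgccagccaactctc
Vil1: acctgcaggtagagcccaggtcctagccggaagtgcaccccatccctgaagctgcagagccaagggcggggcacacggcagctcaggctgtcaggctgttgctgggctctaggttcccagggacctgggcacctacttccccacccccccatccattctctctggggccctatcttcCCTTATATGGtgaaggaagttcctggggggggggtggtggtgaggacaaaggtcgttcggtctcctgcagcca
The box begins 90 bases before the start in Actg1, 50 in Myl6, 161 in Myl9 and 73 in Vil1. RefSeq gives Myl6 2 starts: the promoter shown belongs to the one inside the gene, and the promoter at the gene's outer start (chr10:128493837-128494136) holds no box. Myl6 and Vil1 share the same box, letter for letter. Acta2 has no box of this exact form in its window. Boxes with a G or C among the 6 inner letters were not searched, so a variant box in Acta2 would be missed. The cores of the hypoxia response element were searched in the same windows on both strands: ACGTG was present in 18.1% of the cytoskeleton genes, beside 29.0% of genes in the table and 21.8% of all genes, and GCGTG in 56.9%, beside 54.0% and 35.2%. The 2 cores differ in their first letter, so no base of a strand starts both, though matches on opposite strands can overlap. A match of letters is a description and not a binding site.

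Unconventional myosins, which move membranes and vesicles along actin, fell in 5 of 8 genes (62.5%), beside 38.7% of all tested genes. The list median was -0.77. Myo5a, a vesicle motor, had 270.5, 239 and 271 normalised reads in the MK-8617 libraries, against 382, 447 and 484 in the IRI libraries (log2 fold change -0.74 ± 0.14 SE, limma adjusted p = 0.00459). Myo5c, the epithelial myosin V, had 77.9, 77.9 and 71.2 with MK-8617 and 168, 138 and 233 in IRI (log2 fold change -1.20 ± 0.23 SE, limma adjusted p = 0.00535). Myo15b had 839, 1028 and 784 with MK-8617 and 1772, 1669.6 and 1186 in IRI (log2 fold change -0.79 ± 0.17 SE, limma adjusted p = 0.00822). Groups of these 3 genes were separate. Myo1g, a myosin of blood cells, had 40.0, 59.8 and 37.2 with MK-8617 and 90.9, 142 and 76.7 in IRI (log2 fold change -1.14 ± 0.31 SE, limma adjusted p = 0.0242). Myo1c, the most abundant by FPKM in both groups, had 4585, 4097 and 5753 with MK-8617 and 6463, 6112 and 6653 in IRI (log2 fold change -0.43 ± 0.13 SE, limma adjusted p = 0.0423). Myo10, at 6.86 FPKM with MK-8617 and 8.38 FPKM in IRI, where Myo15b was at 8.81 FPKM, had 1189.5, 1203 and 1356 with MK-8617 and 1566, 1496 and 1459.9 in IRI and did not pass the threshold (log2 fold change -0.27 ± 0.10 SE, limma adjusted p = 0.0644), but passed it with the length trend removed (-0.48, limma adjusted p = 0.00421). Myo1f, another myosin of blood cells, was not past the threshold either and its groups overlapped (adjusted p = 0.293). In edgeR's quasi-likelihood test on whole reads, Myo1c did not pass the threshold (adjusted p = 0.097). The count of falls was 3 without MK-8617 replicate 1 or IRI replicate 1 or 2, the Myo1c call was lost without MK-8617 replicate 1 or 2 or IRI replicate 1, 2 or 3 (-0.46 to -0.32) and the Myo1g call without MK-8617 replicate 1 or 3 or IRI replicate 1 or 2 (-1.21 to -0.89).

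Spectrins form the lattice under the plasma membrane. Sptan1, the alpha chain, had 8284, 8331 and 9586 normalised reads in the MK-8617 libraries, against 7822, 6099 and 6313 in the IRI libraries and did not pass the threshold (log2 fold change 0.38 ± 0.13 SE, limma adjusted p = 0.0538). Sptbn1, the main beta chain, had 10234, 9652 and 11388 with MK-8617 and 10569, 6481 and 6781 in IRI (log2 fold change 0.43 ± 0.18 SE, limma adjusted p = 0.124). Sptan1 values were higher in each MK-8617 library than in any IRI library, and those of Sptbn1 overlapped. Sptan1 passed the threshold in edgeR's quasi-likelihood test on whole reads (adjusted p = 0.0379), whereas with the length trend removed its log2 fold change was 0.09 and that of Sptbn1 0.06 (limma adjusted p = 1 for each).

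Tubulins went in both directions. Of 14 tubulin and gamma-tubulin complex genes 8 fell (57.1%) and 3 rose (21.4%), beside 38.7% and 35.7% of all tested genes. The list median was -0.49. Among alpha tubulins, Tuba1c rose, with 6474, 6172 and 7063 normalised reads in the MK-8617 libraries, against 4276, 3743 and 5944 in the IRI libraries (log2 fold change 0.52 ± 0.16 SE, limma adjusted p = 0.043). Tuba1a fell, with 1576, 1422 and 1711 with MK-8617 and 2523, 2534 and 3272 in IRI (log2 fold change -0.82 ± 0.13 SE, limma adjusted p = 0.00227). Tuba1b fell too, with 4753, 4827 and 4616 with MK-8617 and 6035, 7587 and 7271 in IRI (log2 fold change -0.55 ± 0.11 SE, limma adjusted p = 0.00728). Tuba1c made up 38.3 ± 1.62% of the FPKM of the 5 alpha tubulins with MK-8617 and 22.8 ± 3.06% in IRI (SD, n = 3 each), and the ratio of Tuba1c to Tuba1b was 1.14 ± 0.105 with MK-8617 and 0.552 ± 0.135 in IRI. Tuba4a, at -0.37, did not pass the threshold (adjusted p = 0.0873).

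Beta tubulins also went in both directions. Tubb2a rose, with 5659.5, 4670.4 and 5660.2 normalised reads in the MK-8617 libraries, against 3449.9, 2688 and 3812 in the IRI libraries (log2 fold change 0.69 ± 0.15 SE, limma adjusted p = 0.00839). Tubb5, a widely expressed isotype, fell, with 4352, 4772 and 5075 normalised reads in the MK-8617 libraries, against 6860.0, 8446 and 8591 in the IRI libraries (log2 fold change -0.75 ± 0.12 SE, limma adjusted p = 0.00257). Tubb4b, the most abundant isotype, was higher in each MK-8617 library without passing the threshold, with 9596, 7726 and 8137 with MK-8617 and 7264, 6278 and 7151 in IRI (log2 fold change 0.30 ± 0.12 SE, limma adjusted p = 0.102). Tubb2a made up 33.6 ± 1.25% of the FPKM of the 6 beta tubulins with MK-8617 and 22.2 ± 2.25% in IRI, and Tubb5 made up 14.6 ± 1.79% with MK-8617 and 26.0 ± 3.57% in IRI. Tubb2b, a close paralogue of Tubb2a, fell (-0.64, limma adjusted p = 0.0206), and the ratio of Tubb2b to Tubb2a was 0.115 ± 0.0128 with MK-8617 and 0.288 ± 0.0157 in IRI. Tubb6 fell as well (-0.44, adjusted p = 0.032), and Tubb3, at 2.0, 9.6 and 11.7 with MK-8617 and 26.5, 35.5 and 20.1 in IRI, was low throughout.

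**Figure D4:**
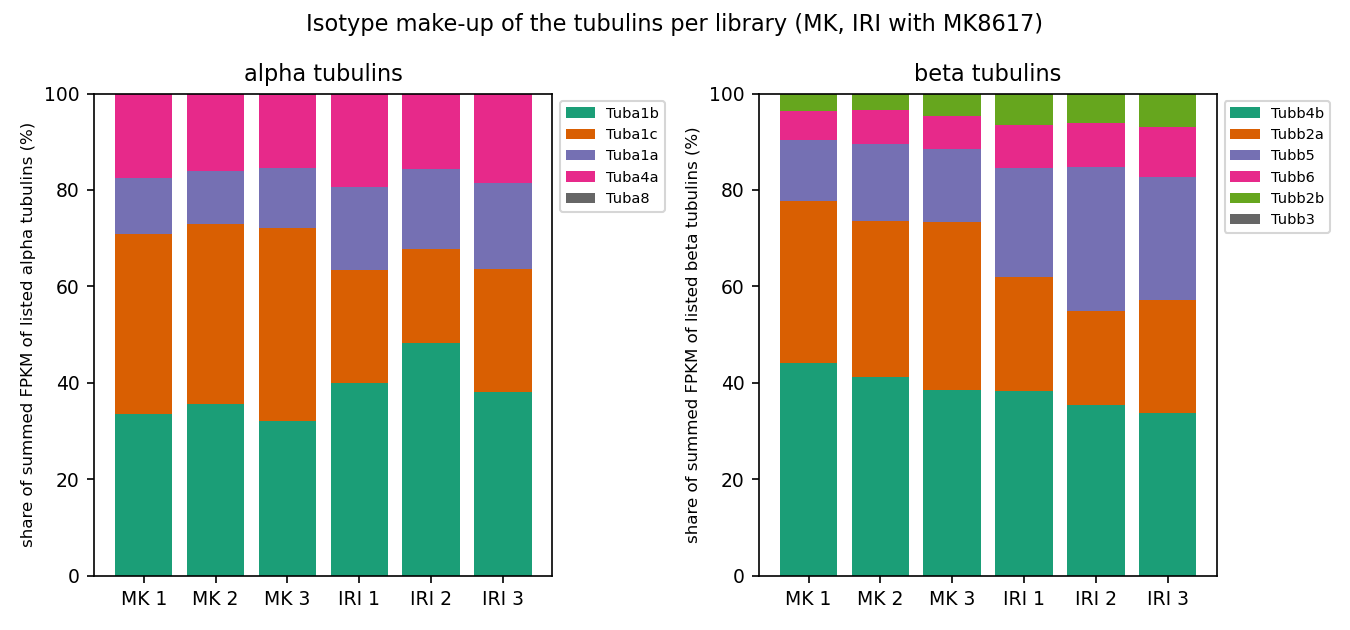
Stacked bars give each isotype's share (%) of the summed FPKM of the listed alpha tubulins (left) and beta tubulins (right) in each library, MK-8617 replicates 1 to 3 left of IRI replicates 1 to 3. The orange shares, Tuba1c and Tubb2a, are wider with MK-8617 (means 38.3% and 33.6%) than in IRI (22.8% and 22.2%).

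Nucleation genes split as well. Tubgcp3, a subunit of the gamma-tubulin complex, rose, with 1356, 1495 and 1198 normalised reads in the MK-8617 libraries, against 833, 792 and 814 in the IRI libraries (log2 fold change 0.73 ± 0.11 SE, limma adjusted p = 0.00164). Tubg1, gamma tubulin itself, fell, with 352, 378 and 384 normalised reads in the MK-8617 libraries, against 594, 693 and 588 in the IRI libraries (log2 fold change -0.75 ± 0.12 SE, limma adjusted p = 0.00208). Tubgcp2, the partner of Tubgcp3 in the small gamma-tubulin complex, fell (-0.57, limma adjusted p = 0.0101). Tubulin reads are hard to assign: 69.5% of the 100-base words of Tuba1b, 65.1% of Tuba1a, 53.4% of Tuba1c, 36.9% of Tubb2a, 27.7% of Tubb2b and 29.2% of Tubb4b recur in other genes, so values of these 6 genes are uncertain. No such word of Tubb5 does, and 4.1% of the words of Tubg1 do. The count of tubulin falls was 5 without MK-8617 replicate 1 or 2, and calls were lost for Tuba1c without MK-8617 replicate 1, 2 or 3 or IRI replicate 1 or 2 (0.38 to 0.57), for Tubb2b without MK-8617 replicate 1 or 2 or IRI replicate 1 (-0.65 to -0.50), for Tubb6 without MK-8617 replicate 1, 2 or 3 or IRI replicate 3 (-0.49 to -0.31) and for Tubb3 without MK-8617 replicate 1 or 2 or IRI replicate 1 or 2 (-2.15 to -1.25). With the length trend removed the calls of Tuba1c, Tubb6 (-0.33) and Tubb3 were lost; with length and GC trends removed 5 tubulin genes fell and 4 rose, Tubb4b then passed the threshold (0.41), and the calls of Tubb2b, Tubb6 (-0.26) and Tubb3 were lost. Without MK-8617 replicate 1 the Tubb3 log2 fold change was -1.25. In edgeR's quasi-likelihood test on whole reads, Tubb6 did not pass the threshold (adjusted p = 0.0565).

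Among 7 tested tubulin chaperones and microtubule-associated proteins 3 fell (42.9%) and 2 rose (28.6%), beside 38.7% and 35.7% of all tested genes, which are near these shares. Tbca, a folding cofactor for beta tubulin, fell, with 1282, 1126 and 1088 normalised reads in the MK-8617 libraries, against 1948, 2083 and 2052 in the IRI libraries (log2 fold change -0.80 ± 0.10 SE, limma adjusted p = 0.000751). Tbce, a cofactor that acts on alpha tubulin, rose, with 1017, 1034 and 875 normalised reads in the MK-8617 libraries, against 639.8, 551 and 616 in the IRI libraries (log2 fold change 0.69 ± 0.11 SE, limma adjusted p = 0.00248). Tbcb, its partner on alpha tubulin, did not pass the threshold, with 1647, 1542 and 1303 with MK-8617 and 1692, 1822 and 1986 in IRI (log2 fold change -0.30 ± 0.12 SE, limma adjusted p = 0.095). Cofactors of this folding pathway stood on both sides of 0. Map1s, which binds microtubules and the autophagy machinery, rose, with 970.2, 921 and 868 with MK-8617 and 634, 545 and 757 in IRI (log2 fold change 0.52 ± 0.13 SE, limma adjusted p = 0.0179). Stmn1, stathmin, which sequesters tubulin dimers and is abundant in dividing cells, fell, with 496, 494 and 440.2 with MK-8617 and 697, 1452 and 719.9 in IRI (log2 fold change -0.92 ± 0.25 SE, limma adjusted p = 0.025). Of the Stmn1 words 26.1% recur in another gene; without IRI replicate 2, its highest library, the log2 fold change was -0.57, and the call was lost without MK-8617 replicate 1, 2 or 3 (-0.95 to -0.86). The Map1s call was lost without MK-8617 replicate 1 or 2 or IRI replicate 1 (0.48 to 0.52), with the length trend removed (0.35) and with length and GC trends removed (0.30), which both left Tbce as the one rise. Tbca kept its call there, at -0.40 and -0.46. The rises numbered 1 without MK-8617 replicate 1 or 2 or IRI replicate 1, and the falls 1 without MK-8617 replicate 1 or 2.

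Dynein and dynactin genes fell in 8 of 11 cases (72.7%), beside 38.7% of all tested genes, and none rose. The list median was -0.48. Dynll1, the light chain LC8, which also serves as a hub in other complexes, had 2123, 2289 and 1796 normalised reads in the MK-8617 libraries, against 4189, 4276 and 4073 in the IRI libraries (log2 fold change -1.02 ± 0.11 SE, limma adjusted p = 0.000447). Its paralogue Dynll2 had 2558, 2190.0 and 2357 with MK-8617 and 4424, 3912 and 3326 in IRI (log2 fold change -0.71 ± 0.13 SE, limma adjusted p = 0.0037). Dctn5, a dynactin subunit, had 961, 988 and 808 with MK-8617 and 1302, 1284 and 1252 in IRI (log2 fold change -0.48 ± 0.11 SE, limma adjusted p = 0.00967). Most falls here were of light chains, and the heavy, intermediate and light intermediate chains of cytoplasmic dynein were not analysed here. Dynlrb1, a roadblock light chain, had 1301, 1426 and 1139.9 with MK-8617 and 1541, 1846 and 1767 in IRI (log2 fold change -0.42 ± 0.12 SE, limma adjusted p = 0.0287), and with length and GC trends removed its log2 fold change was 0.01. Dynlt1c had 59.4, 75.8 and 43.6 with MK-8617 and 204, 271 and 105 in IRI (log2 fold change -1.62 ± 0.36 SE, limma adjusted p = 0.0101), but 89.5% of its words occur in its copies Dynlt1b and Dynlt1f or elsewhere, so the 3 copies are uncertain. The count of falls was 3 to 5 without MK-8617 replicate 1 or 3 or IRI replicate 2, and 5 in edgeR and DESeq2. The Dynlt1b call was lost with the length trend removed (-0.23). The Dynlrb1 call was lost without MK-8617 replicate 1 or 3 or IRI replicate 2 (-0.43 to -0.33) and the Dynlt1c call without MK-8617 replicate 3 (-1.41).

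Intermediate filament genes fell in 5 of 8 tested cases (62.5%), beside 38.7% of all tested genes. The list median was -0.64, and the summed level was 570 ± 32.1 FPKM in the MK-8617 libraries and 901 ± 193 FPKM in the IRI libraries. Vim, vimentin of mesenchymal and dedifferentiated cells, had 2139, 3169.8 and 3347 normalised reads in the MK-8617 libraries, against 5942, 5890.4 and 9118 in the IRI libraries (log2 fold change -1.27 ± 0.21 SE, limma adjusted p = 0.00289). Des, desmin of muscle and pericytes, had 377, 507 and 507 normalised reads in the MK-8617 libraries, against 927, 1040.2 and 997 in the IRI libraries (log2 fold change -1.10 ± 0.14 SE, limma adjusted p = 0.000749). Krt8 had 16459, 14977 and 13644 with MK-8617 and 21792, 18506 and 28956 in IRI (log2 fold change -0.60 ± 0.17 SE, limma adjusted p = 0.0264). Krt18, its partner in the filament, had 1948, 1792 and 1889.6 with MK-8617 and 2411, 2695 and 3553 in IRI (log2 fold change -0.60 ± 0.14 SE, limma adjusted p = 0.0132). Of the Krt8 words 16.9% recur in a pseudogene. The pair fell by the same log2 value, and the ratio of Krt8 to Krt18 FPKM was 5.88 ± 0.503 with MK-8617 and 5.89 ± 0.802 in IRI (SD, n = 3 each).

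Krt19, a simple keratin of ducts and of injured tubule, lay on the other side of 0 from Krt8 and Krt18. It had 824, 892 and 758 normalised reads in the MK-8617 libraries, against 666, 681 and 676 in the IRI libraries (log2 fold change 0.29 ± 0.10 SE, limma adjusted p = 0.0651), higher in each MK-8617 library but not past the threshold, and passed it in edgeR's quasi-likelihood test on whole reads (adjusted p = 0.0295). The ratio of Krt19 to Krt18 was 0.341 ± 0.0393 with MK-8617 and 0.186 ± 0.0345 in IRI, without overlap. Krt5, a basal keratin, was low, with 5.1, 5.3 and 2.1 with MK-8617 and 21.8, 19.1 and 47.0 in IRI (limma adjusted p = 0.00728). Krt23 (-0.67) and Krt80 (0.52) did not pass the threshold. The falls numbered 3 without MK-8617 replicate 2, and 3 with the length trend removed, where Krt8 (-0.53) and Krt18 (-0.40) were not past the threshold and Krt19 was (0.37). Calls were lost for Krt8 without MK-8617 replicate 2 or 3 or IRI replicate 1 (-0.63 to -0.53) and for Krt18 without MK-8617 replicate 2 or 3 (-0.61 to -0.57).

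The 2 lamins in the table, which line the nuclear envelope, fell, beside 38.7% of all tested genes. Lmnb1, whose transcript is abundant in cycling cells, had 192, 174 and 228 normalised reads in the MK-8617 libraries, against 396, 723 and 361 in the IRI libraries (log2 fold change -1.25 ± 0.25 SE, limma adjusted p = 0.00662). Lmna had 3355, 3246 and 3313 with MK-8617 and 4476, 4330.1 and 5387 in IRI (log2 fold change -0.51 ± 0.11 SE, limma adjusted p = 0.00907). IRI replicate 2 was the highest library for Lmnb1. It was the highest for 19 of the 85 tested cytoskeleton genes, among them Stmn1, Myl6, Des and Tmsb4x, beside 26.9% of all tested genes.

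Across the other marker lists there were both falls and rises, where 38.7% of all tested genes fell and 35.7% rose. All 13 proliferation markers lay in the table and 11 fell, with a summed level of 42.8 to 45 FPKM in the MK-8617 libraries and 90.8 to 221 FPKM in the IRI libraries, with IRI replicate 2 at 221 FPKM, and Bub1 was at 0 in a library. Of 19 macrophage and monocyte markers 15 lay in the table, 12 fell and Cd14 rose, with a summed level of 132 to 160 FPKM in the MK-8617 libraries and 159 to 289 FPKM in the IRI libraries, again highest in IRI replicate 2. Both neutrophil markers in the table, of 8, fell, S100a8 and S100a9, but neither passed the threshold with length and GC trends removed (-0.92 and -0.76, limma adjusted p = 0.142 and 0.0974), and none with the length trend alone removed. Of 15 proximal tubule markers 6 were tested, 3 rose and Gatm fell, and of 7 podocyte markers 3 lay in the table and rose. Of thick ascending limb markers 5 were tested, 3 fell and Egf rose, of distal tubule and collecting duct markers 5 were tested, 2 fell and Pvalb rose, and of endothelial markers 2 were tested and Flt1 rose. The share that fell was 40% in the distal tubule and collecting duct list, near that of all tested genes. It was 84.6% for proliferation and 80% for macrophage and monocyte markers. No macrophage, neutrophil, proximal tubule or podocyte marker in the table was at 0 in any library. Lymphocyte and urothelium markers were not analysed here. The part of these cells in the falls of Stmn1, Lmnb1, Arpc1b, Myo1g, Vil1 and the keratins was not tested.

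Of 58 listed regulators of actin assembly 24 were tested, and 15 fell (62.5%) and 5 rose (20.8%), beside 38.7% and 35.7% of all tested genes, with a median of -0.59. Coro2a, a coronin, averaged 109 ± 11.4 normalised reads with MK-8617 and 365 ± 87.1 in IRI (log2 fold change -1.71 ± 0.20 SE, limma adjusted p = 0.000565), and Coro1b fell by less (log2 fold change -0.77 ± 0.09 SE, limma adjusted p = 0.000741). Fhod3, a formin (log2 fold change -0.91 ± 0.14 SE, limma adjusted p = 0.00185), and Brk1, a subunit of the WAVE complex that activates Arp2/3 (log2 fold change -0.62 ± 0.10 SE, limma adjusted p = 0.00234), fell as well. The leukocyte proteins Coro1a (-1.45) and Lcp1 (-1.38) are among the falls, and Coro1a is counted among the macrophage and monocyte markers as well. The 5 rises were the cofilin phosphatase Ssh1 (0.52), Coro2b (0.79), Wipf2 (0.42), Wasl (0.32), an activator of Arp2/3, and Mkl2 of the myocardin family (0.37). With length and GC trends removed 3 of the list rose, and with the length trend alone removed 2. With both removed, Wasl was at 0.13 and Mkl2 at 0.23 (limma adjusted p = 0.6 and 0.214), and Brk1, still past the threshold, was at -0.28. Of 42 contractile and adhesion partners 20 were tested, 10 fell (50%) and 2 rose (10%), with a median of -0.66. This list includes Tagln, Cnn1, Lmod1 and Synpo2, which are counted among the smooth muscle markers above as well. The falls include calponin 2, Cnn2 (log2 fold change -1.29 ± 0.15 SE, limma adjusted p = 0.00064), talin 2, Tln2 (log2 fold change -1.03 ± 0.16 SE, limma adjusted p = 0.00227), caldesmon, Cald1 (log2 fold change -0.85 ± 0.16 SE, limma adjusted p = 0.00486), and anillin of the cytokinetic ring, Anln (log2 fold change -2.14 ± 0.43 SE, limma adjusted p = 0.00637). The 2 rises were the regulators Rock1 (0.44), which activates myosin II, and Ppp1r12a (0.59), which targets the phosphatase that inactivates it. With length and GC trends removed neither passed the threshold, at 0.14 for Rock1 and 0.27 for Ppp1r12a (limma adjusted p = 0.501 and 0.138).

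Of 44 listed microtubule motors and regulators 16 were tested, 7 rose (43.8%) and 5 fell (31.2%), with a median of 0.37, shares near the 35.7% and 38.7% of all tested genes. The adaptors Hook3 (log2 fold change 0.48 ± 0.09 SE, limma adjusted p = 0.00417) and Hook1 (log2 fold change 0.46 ± 0.11 SE, limma adjusted p = 0.0137) rose, and Kif1c, a kinesin (log2 fold change -0.55 ± 0.13 SE, limma adjusted p = 0.0146), and the end-binding protein Mapre2 (log2 fold change -0.39 ± 0.09 SE, limma adjusted p = 0.0148) fell. With length and GC trends removed, 3 of this list rose, 5 fell and the median was 0.02; Hook3 was then at -0.13, on the other side of 0, and Hook1 at 0.18, and neither passed the threshold (limma adjusted p = 0.676 and 0.297). Of 29 intermediate filament and lamina partners 12 were tested, 5 fell (41.7%) and 3 rose (25%), beside 38.7% and 35.7% of all tested genes, with a median of -0.41. Banf1, which binds chromatin at the nuclear envelope, fell (log2 fold change -1.23 ± 0.12 SE, limma adjusted p = 0.000291; -0.74 with length and GC trends removed), as did Pkp4 (log2 fold change -0.69 ± 0.11 SE, limma adjusted p = 0.00196), and the desmosomal plakophilin Pkp2 rose (log2 fold change 0.97 ± 0.11 SE, limma adjusted p = 0.000605), as did Sun1 of the nuclear envelope (log2 fold change 0.53 ± 0.10 SE, limma adjusted p = 0.00477).

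Over the whole table, shorter genes were lower with MK-8617, and the cytoskeleton genes had medians below 0 in every length bin. When all tested genes were put in 4 bins of near-equal number by exon length, their median log2 fold change was -0.65 in the shortest bin, -0.40 and 0.33 in the next bins and 0.39 in the longest. In the same bins the cytoskeleton genes had medians of -0.65, -0.64, -0.57 and -0.65. The shares that fell were 71.4%, 80.6%, 69.2% and 60% of the cytoskeleton genes, beside 55.4%, 43.6%, 32.6% and 23.1% of all tested genes. The third bin held 13 cytoskeleton genes, the fewest of the 4. With the length trend removed from all genes, 57 cytoskeleton genes fell and 4 rose with a median of -0.60, beside -0.24 for all tested genes. In that setting 2569 of all tested genes fell and 1940 rose, against 2691 and 2482 before.

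**Figure D5:**
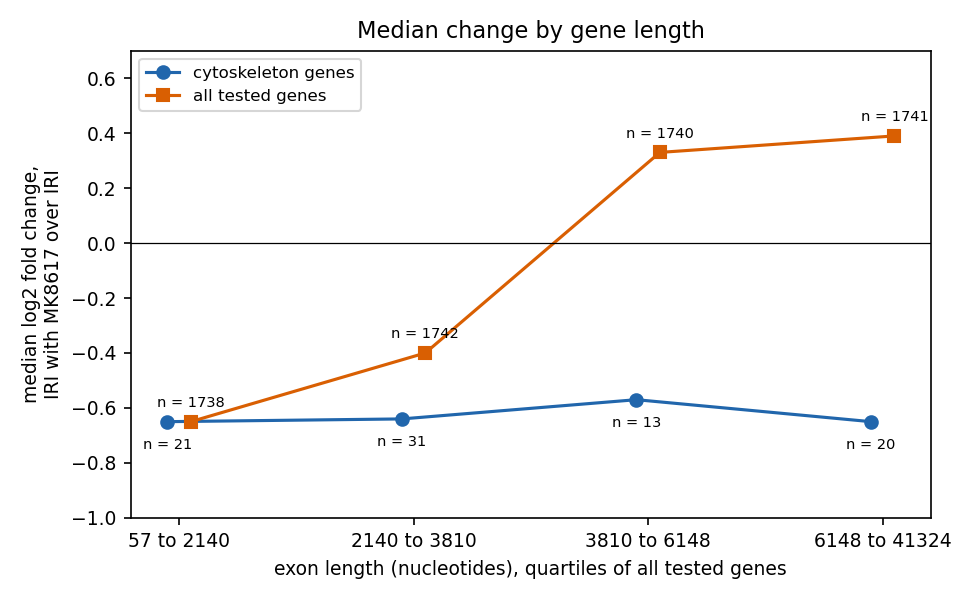
Median log2 fold change (MK-8617 over IRI) in 4 bins of exon length (nucleotides), with circles for the cytoskeleton genes and squares for all tested genes; the number of genes is given at each point. The squares run between -0.65 and 0.39, and the circles stay between -0.65 and -0.57.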

How the data were processed

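Total RNA of mouse kidney was isolated with TRIzol and made into libraries with the NEBNext Ultra kit, per the labels' protocols. Alignment and counting tools named in the submitters' processing notes are HISAT2 2.0.5 and featureCounts 1.5.0-p3, beside DESeq2 1.20.0, fastp and CASAVA 1.8; a human build, GRCh38, is named too, but the deposited identifiers are mouse, and strand handling is not given in the sources used here. Columns carry a 1d tag, the labels no time; the design text speaks of tumors, the labels of kidney. Samples were grouped by title.

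The deposited normalised values (a signal scale) are read counts per gene, divided by the authors by one size factor per library. Dividing by the value of 1 read gave whole reads in 100% of cases within 0.001, which equalled the raw count the authors deposited for one library in 7340 genes. FPKM and, for each gene, a log2 fold change and p-value were deposited by the authors too. The table lists genes with p below 0.05 alone, and its adjusted p-values imply 18811 genes, of which 11560 were not analysed here. Another 13 columns without values were not used. Exon lengths, overlaps and 100-base words shared between genes came from GENCODE M21 (GRCm38), which matched 7338 identifiers.

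limma 3.58.1 (trend, robust; R 4.3.3) was run on log2(value + 1) for genes kept by filterByExpr of edgeR 4.0.16, two-sided, with Benjamini-Hochberg adjustment over 18811 genes and a threshold of 0.05. The added 1 understates changes of low genes. The script was tested on simulated data. Replicates differed by more than sampling noise (chi-square per degree of freedom 17.12 to 47.46). A floor of 3 reads is 0.154 to 0.178 CPM and covers counting error only.

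Members and lists were chosen with earlier results of these data known. Named with all libraries were, per role, up to 4 called genes with the smallest adjusted p, the 2 with the highest FPKM and called genes against the majority; further genes were chosen after their values were seen, and a gene that the rule names is not reported here. Alternatives were other pseudocounts, filters, scalings and adjustments, edgeR, DESeq2 1.42.0, limma-voom, a replicate block, length and GC trends removed, and each library left out.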

Additional observations from a re-analysis of the deposited data

How the results depend on the processing

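Of 66 called cytoskeleton genes, 41 kept their direction and their call in each of the 18 alternative settings in which they were tested, and the calls most often lost were those of Actr1a (13 settings), Dynlt1b, Myo1c and Tubb6 (9 each). The number that fell was 61, stayed between 50 and 72 in the settings with all 6 libraries, and was 43 to 54 with one library left out. The number that rose was 5, and it was 8 with edgeR, 9 with DESeq2 and 10 with p-values adjusted over the tested genes alone; with one library left out it was 3 to 6. Over all tested genes, the number that rose was 2482, and 1510 to 2479 with one library left out. The one reversal among the called cytoskeleton genes was Dynlrb1, at 0.01 with length and GC trends removed (limma adjusted p = 1); the cause was not tested, nor were those of the other shifts in counts. The share of falls among calls was 92.4% and ranged between 85.2% (DESeq2) and 93.8%. With edgeR 11 calls were lost and 3 gained, with DESeq2 9 lost and 4 gained, and with limma-voom 11 lost and 2 gained. Deviations from the group means correlated at 0.02, 0.12 and 0.11 between same-numbered libraries, so the numbers were not taken to pair them; with the replicate block 61 genes fell and 6 rose, 1 call was lost and 2 were gained. Depth limits genes of few reads such as Actg2, Krt5 and Tubb3, and 4 genes stayed untested.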
